A study of Mus musculus with 39 samples.

Results

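Dynap, Msln, Prkg2, Acap1, Otof and Foxq1 are 6 of the 20520 genes in an expression table of PB2 mouse breast tumors. They were chosen from measured values, for strong expression linked to p95HER2 or for its loss by day 22. Their differences between the 4 groups, by construct or by day, are therefore given as a description, without a test. Tests are reserved for their spread among p95HER2 libraries and for other genes.

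The study compared implanted PB2 tumors that carried FL-HER2, the full-length receptor, with PB2 tumors that carried p95HER2. HER2 is a receptor tyrosine kinase encoded by Erbb2, and p95HER2 is a carboxy-terminal form that lacks most of the extracellular part but keeps the kinase. Tumors were collected 10 or 22 days after implantation, which gave 10 libraries of each construct at day 10, then 9 of FL-HER2 and 10 of p95HER2 at day 22. The labels give no strain, age or host genotype, and no group without a HER2 construct. The titles give each library a tumor of its own, but not its host animal, so p-values measure the spread between tumors, and tumors that share an animal would not be independent. All values come from whole tumor tissue, in which fewer cells of a type and less RNA per cell cannot be told apart.

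The genes belong to unrelated families. Dynap encodes a membrane protein named for binding dynactin, the cofactor of the dynein motor. Msln encodes mesothelin, a lipid-anchored surface glycoprotein of mesothelial cells that many carcinomas also express and that binds the mucin MUC16. Prkg2 encodes the membrane-anchored cGMP-dependent kinase of gut and growth-plate cartilage, where natriuretic peptide or guanylin receptors supply its cGMP. Acap1 encodes a GTPase-activating protein for the small GTPase ARF6 that sorts integrins and other cargo into recycling vesicles, and lymphocytes express it strongly. Otof encodes otoferlin, a ferlin with calcium-binding C2 domains that drives vesicle release in inner hair cells of the ear. Foxq1 encodes a forkhead transcription factor of the hair shaft that can promote epithelial-mesenchymal transition in carcinoma cells.

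Libraries held 21772259 to 44427621 recovered reads, so 1 CPM (count per 1e+06 reads) stood for at least 21.8 reads. At day 10 mean Erbb2 was 184 ± 29.4 CPM with FL-HER2 against 346 ± 62.3 CPM with p95HER2 (SD, n = 10 each), and at day 22 it was 113 ± 25.2 (n = 9) against 185 ± 26.3 CPM (n = 10). Skeletal muscle genes took a median of 1.73% of reads in FL-HER2 day 10 libraries and 0.0241% in p95HER2 day 10 libraries, with 0.228% and 0.236% at day 22. Epithelial markers such as Epcam and Krt14 had sums of 1930 to 2548 CPM per library, and 15 of 15 had enough reads to be tested. Single markers moved within that sum. In FL-HER2 tumors mean Krt14 went from 163 CPM at day 10 to 19.5 CPM at day 22, and mean Epcam from 621 to 627 CPM. A score of 8 skin markers (mean log2 value) separated 11 libraries, at 5.84 to 10.25, from the other 28, at 2.51 to 4.54. These 11 were 2 of FL-HER2 day 10, 1 of FL-HER2 day 22, 5 of p95HER2 day 10 and 3 of p95HER2 day 22. In the FL-HER2 day 10 group 8 libraries carry a tumor number of 5 digits, where all others have 3. A term for the digits thus leaves the level of that group to 2 libraries. The labels do not say whether a number of 5 digits stands for a single tumor or a pool. Spread in that group may therefore not be between single tumors.

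Of the 6 genes, Dynap alone was nearly absent from every FL-HER2 library, and the word restricted did not hold for the others. Msln was low but detected in most FL-HER2 libraries, and Prkg2, Acap1, Otof and Foxq1 had reads in all of them. At day 10 the ranges of p95HER2 and FL-HER2 libraries did not overlap for 4 genes (Dynap, Msln, Prkg2 and Acap1), all higher in p95HER2, against 1.75% of all 13650 genes tested. At day 22 they did not overlap for 3 (Dynap, Msln and Prkg2), against 0.278% of genes tested. Because the genes were picked on these values, the shares say nothing further about them.

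**Figure D1:**
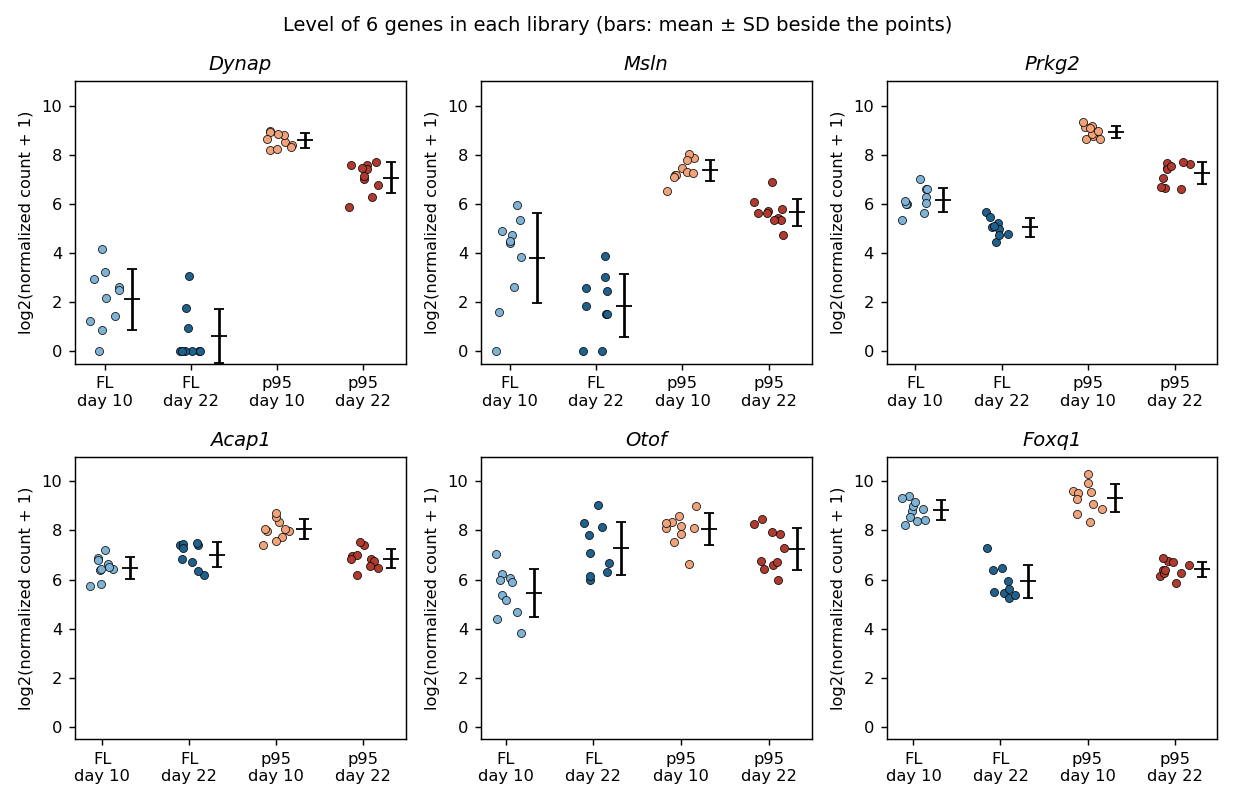
Level of each of the 6 genes in every library, as log2(normalized count + 1), with bars for mean ± SD beside the points (n = 10, 9, 10 and 10 libraries from left to right). Dynap, Msln and Prkg2 lie higher in p95HER2 at both days, Acap1 and Otof overlap between constructs at day 22, and Foxq1 is low at day 22 in both constructs.

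Dynap showed the widest separation. In FL-HER2 day 10 libraries 1 was at 0 and the others reached at most 0.543 CPM, with 56 reads in all 10 libraries together. In FL-HER2 day 22 libraries 6 of 9 were at 0 and the other 3 were at 0.0336, 0.0878 and 0.276 CPM, 10 reads in all. A count of 0 allows up to 3 reads, or 0.0675 to 0.124 CPM in the 7 libraries at 0, with counting error only. The p95HER2 libraries stood at 10.5 to 17.004 CPM at day 10 (median 13.4) and at 2.07 to 7.44 CPM at day 22 (median 5.53). The highest FL-HER2 library of all, at 0.543 CPM, thus lay below the lowest p95HER2 library, at 2.07 CPM.

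Mean Dynap levels at day 10 were 0.162 ± 0.162 CPM with FL-HER2 against 13.5 ± 2.62 CPM with p95HER2 (SD, n = 10 each), an 83.7-fold ratio of means. At day 22 they were 0.0441 ± 0.0917 (n = 9) and 5.24 ± 1.87 CPM (n = 10), a 119-fold ratio. FL-HER2 day 22 replicate 6 carried 6 of the 10 reads of its group, and without it the FL-HER2 mean was 0.0152 CPM and the ratio 345-fold. The log2 difference was 6.46 ± 0.39 (SE) at day 10 and 6.43 ± 0.40 at day 22. Its size depends on the scale, since FL-HER2 levels are near 0: on log2(CPM + 1) it was 3.64 and 2.51, and with a pseudocount of 0.1 it was 8.80 at day 22. Every p95HER2 day 22 library lay below every p95HER2 day 10 library, with a log2 difference of -1.51 ± 0.39 between days. The drop in p95HER2 tumors thus left Dynap far above its FL-HER2 level.

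Msln had the same order at lower levels. FL-HER2 libraries ranged from 0 to 2.03 CPM at day 10 (median 0.721, 1 library at 0) and from 0 to 0.499 CPM at day 22 (median 0.0900, 2 libraries at 0). The p95HER2 libraries ranged from 3.22 to 8.97 CPM at day 10 (median 5.30) and from 0.948 to 4.15 CPM at day 22 (median 1.77). The p95HER2 day 22 range thus crosses that of FL-HER2 day 10, while at a given day the constructs did not overlap. Means were 0.719 ± 0.615 against 5.93 ± 1.72 CPM at day 10 and 0.148 ± 0.157 against 1.94 ± 0.868 CPM at day 22, or 8.25-fold and 13.1-fold. The log2 differences were 3.57 ± 0.51 and 3.80 ± 0.52, or 2.05 and 1.32 on log2(CPM + 1), and the first was 2.19 with the digits term. Between days in p95HER2 tumors the log2 difference was -1.71 ± 0.51, and 9 of 10 day 22 libraries lay below the lowest day 10 library.

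Mesothelial cells are a known source of Msln, so their markers are given beside it. Of 15 listed markers 14 were in the table and 8 were tested. At day 10, 2 of the 8 passed as higher in p95HER2, Krt7 (1.13 ± 0.16, adjusted p = 7.21e-07) and Bnc1 (1.04 ± 0.19, adjusted p = 4.56e-05). Another 2 passed as lower, Rspo1 (-0.77 ± 0.15, adjusted p = 9.33e-05) and Krt19 (-0.64 ± 0.15, adjusted p = 0.000822). Upk3b had the largest difference of the 8, lower in p95HER2, but did not pass (-2.11 ± 1.08, limma adjusted p = 0.114). Its day 10 means were 0.818 ± 1.43 CPM with p95HER2 and 1.81 ± 1.93 CPM with FL-HER2, and its day 22 difference was 0.16 ± 1.11. At day 22 Krt7 (1.32 ± 0.16, adjusted p = 3.72e-07) and Bnc1 (0.65 ± 0.20, adjusted p = 0.0497) passed as higher, but Bnc1 missed the threshold in 4 of the 5 other fits made for it. The median of the 8 log2 differences was -0.10 at day 10 and 0.18 at day 22, beside -0.04 and -0.01 over all genes tested. The day 10 median changed sign with a muscle covariate (0.25, with 3 higher and 2 lower), so no direction is given for the list.

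The 6 other mesothelial markers in the table did not pass the filter on low values. Lrrn4 was the highest of them, with 12 of 39 libraries at 0. At day 10 its maximum was 5.97 CPM with p95HER2 against 3.85 CPM with FL-HER2, and at day 22 these were 2.10 and 0.499 CPM. The maxima of Lrrn4 at day 10 thus lay within the range of Msln in p95HER2 tumors. Gpm6a reached 2.93 CPM (FL-HER2 day 10) and Upk1b 2.3998 CPM (p95HER2 day 10). Calb2 reached at most 0.143 CPM in any library and was at 0 in 24 of 39. Mslnl, the nearest relative of Msln, reached at most 0.118 CPM and was at 0 in 31 libraries, and Wt1 reached at most 2.54 CPM and was at 0 in 7. The summed level of the list, mostly keratins that tumor epithelium also expresses, ran at day 10 from 1061 to 1600 CPM with FL-HER2 and from 1243 to 1877 CPM with p95HER2. At day 22 the sums were 894 to 1179 and 1046 to 1308 CPM. The part of mesothelial cells in the Msln level was not tested. Muc16 was not analysed here.

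Prkg2 was expressed in all libraries and did not overlap between constructs at either day. FL-HER2 libraries stood at 1.33 to 4.04 CPM at day 10 (median 2.32) and 0.756 to 1.84 CPM at day 22 (median 1.13). The p95HER2 libraries stood at 13.2 to 21.9 CPM at day 10 (median 17.05) and 3.49 to 7.53 CPM at day 22 (median 6.34). The order was thus p95HER2 day 10, p95HER2 day 22, FL-HER2 day 10 and FL-HER2 day 22, with the middle groups and the FL-HER2 groups overlapping in range. Means were 2.50 ± 0.839 against 17.3 ± 2.84 CPM at day 10 and 1.21 ± 0.342 against 5.73 ± 1.64 CPM at day 22, ratios of 6.92 and 4.75. The log2 differences were 2.77 ± 0.18 and 2.20 ± 0.18. Between days in p95HER2 tumors the log2 difference was -1.69 ± 0.18, with no overlap.

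Acap1 differed between constructs at day 10 and not visibly at day 22. FL-HER2 libraries ranged from 1.77 to 4.54 CPM at day 10 (median 2.92), below all p95HER2 day 10 libraries at 5.72 to 14.2 CPM (median 9.09). At day 22 FL-HER2 libraries ranged from 2.66 to 6.61 CPM (median 5.36) and p95HER2 libraries from 2.65 to 6.61 CPM (median 4.10), practically the same interval. Day 10 means were 3.09 ± 0.869 CPM with FL-HER2 against 9.48 ± 2.63, and day 22 means were 4.88 ± 1.54 against 4.33 ± 1.24 CPM. The log2 difference was 1.56 ± 0.19 at day 10 and -0.15 ± 0.20 at day 22. In p95HER2 tumors it was -1.19 ± 0.19 between days, with 8 of 10 day 22 libraries below every day 10 library.

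Otof followed the same pattern with a wider spread. FL-HER2 day 10 libraries ranged from 0.422 to 4.58 CPM (median 1.64), and 9 of 10 p95HER2 day 10 libraries, at 3.37 to 18.2 CPM (median 10.0), lay above them. At day 22 the ranges were 2.24 to 18.8 CPM (median 4.96) in FL-HER2 and 2.29 to 13.1 CPM (median 4.87) in p95HER2. The FL-HER2 day 10 group had the lowest median, and only its highest library, replicate 1 at 4.58 CPM, reached the range of p95HER2 day 10. The other 3 groups overlapped widely. Day 10 means were 1.79 ± 1.23 CPM with FL-HER2 against 10.1 ± 4.02, and day 22 means were 7.23 ± 5.58 against 6.40 ± 3.79 CPM. The log2 difference was 2.60 ± 0.38 at day 10, -0.04 ± 0.40 at day 22 and -0.83 ± 0.38 between days in p95HER2. The day 22 value changed sign without any of 9 single libraries and under 4 other settings, so no direction is given for it.

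Foxq1 separated the days and hardly the constructs. FL-HER2 libraries stood at 10.2 to 22.0 CPM at day 10 (median 15.6) and 1.31 to 5.70 CPM at day 22 (median 1.82). The p95HER2 libraries stood at 11.4 to 43.0 CPM at day 10 (median 23.5) and 2.05 to 4.27 CPM at day 22 (median 2.97). Within each day the constructs overlapped, and within each construct the days did not. The log2 difference between constructs was 0.50 ± 0.22 at both days, with means of 15.5 ± 3.83 against 23.9 ± 9.54 CPM and of 2.43 ± 1.40 against 3.16 ± 0.679 CPM. In p95HER2 tumors the day 10 mean was 7.55 times the day 22 mean, a log2 difference of -2.89 ± 0.22. In the annotation Foxq1 overlaps an antisense coding gene over 3200 bases, and the strand setting of the counting is not given in the sources used here, so its counts may include antisense reads.

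Across days in p95HER2 tumors, the ranges did not overlap for 3 of the 6 genes (Dynap, Prkg2 and Foxq1), all lower at day 22, against 3.05% of genes tested. The limma test, not read for the 6 genes here, called 35.2% of genes in this contrast, 16.6% as higher and 18.6% as lower. Per kilobase of annotated exon, mean levels in p95HER2 day 10 tumors were 11.1 ± 2.14 RPKM (reads per kilobase and 1e+06 reads, SD) for Dynap, 4.93 ± 1.97 for Foxq1 and 3.21 ± 0.529 for Prkg2. Acap1 (1.94 ± 0.539), Msln (1.94 ± 0.560) and Otof (1.28 ± 0.509 RPKM) were lower and overlapped within their SD. In FL-HER2 day 10 tumors Foxq1 led at 3.19 ± 0.790 RPKM and Dynap was last at 0.132 ± 0.132 RPKM. On this scale Dynap was thus the lowest of the 6 in FL-HER2 and the highest in p95HER2 tumors at day 10.

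**Figure D2:**
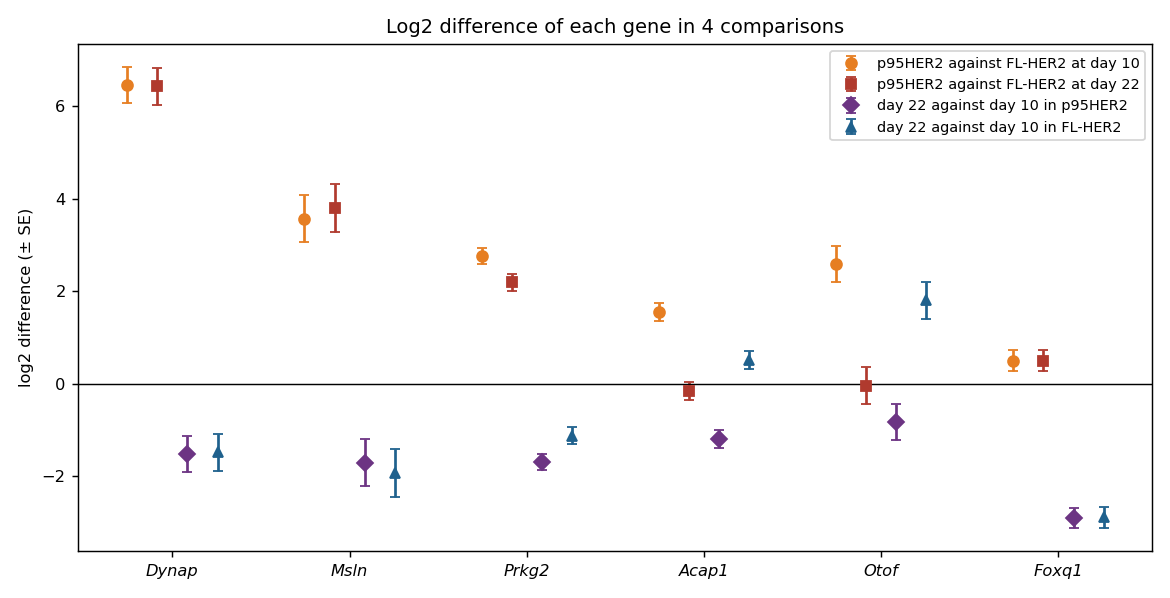
Log2 difference (± SE) of each of the 6 genes in 4 comparisons, from a fit across 39 libraries. Dynap stands at 6.46 and 6.43 between constructs at days 10 and 22, Acap1 and Otof lie near 0 at day 22, and with time in FL-HER2 Acap1 and Otof point up while the other 4 point down.

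Day 22 against day 10 in FL-HER2 tumors completes the set of group contrasts. It is fixed by the other 3, which served to choose the genes, so it is described here without a test. The log2 difference was positive for 2 of the 6 genes (Acap1 and Otof) and negative for 4 (Dynap, Msln, Prkg2 and Foxq1). Over all genes tested limma called 51.4% in this contrast, 20.7% as higher and 30.6% as lower. With quantile normalization or CPM in place of the deposited scaling the higher share of calls moved from 40.4% to 62.5% and 62.4%, while none of the 6 signs changed.

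Foxq1 had the largest difference with time in FL-HER2, -2.89 ± 0.22 on the log2 scale (SE). All 9 FL-HER2 day 22 libraries lay below every day 10 library, as did 4.96% of genes tested. Prkg2 stood at -1.12 ± 0.18, with 7 of 9 day 22 libraries below the day 10 range. Msln stood at -1.93 ± 0.52 and Dynap at -1.48 ± 0.40. The groups overlapped in both genes, since FL-HER2 day 10 libraries already reached 0. The Dynap difference rests on 56 reads against 10, and it was -0.66 with quantile normalization, -0.15 on log2(CPM + 1) and -1.15 with the digits term.

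Otof stood at 1.81 ± 0.40 on the log2 scale, with 5 of 9 day 22 libraries above the day 10 range. The highest, replicate 7 at 18.8 CPM, was also the 1 library of this group with high skin markers. Without all such libraries the difference was 1.73. The Otof difference with time was thus positive in FL-HER2 and negative in p95HER2. The gap between these was not tested. Acap1 stood at 0.52 ± 0.20, also with 5 of 9 day 22 libraries above the day 10 range, and at 0.17 with the digits term. In p95HER2 tumors the Acap1 difference had the opposite sign, and the gap was not tested either.

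Lymphocyte markers moved with Acap1 in FL-HER2 tumors. Of 18 listed markers 14 were tested, and 10 rose from day 10 to day 22 in FL-HER2, none fell, and the median was 1.20, beside -0.03 over all genes tested. Cd8a, a chain of the cytotoxic T cell coreceptor, rose by 2.81 ± 0.67 (limma adjusted p = 0.000665) and Cd4, the helper T cell coreceptor, by 1.18 ± 0.28 (limma adjusted p = 0.000477). With the digits term 1 of the 14 rose, with a median of 1.03. The summed level ran from 51.9 to 111 CPM at day 10 and 72.1 to 189 CPM at day 22. Ms4a1, a B cell marker, reached at most 0.471 CPM and was at 0 in 10 of 39 libraries. The part of lymphocytes in the Acap1 level was not tested.

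The same list did not follow Acap1 between constructs. At day 10 none of the 14 lymphocyte markers passed as higher in p95HER2 and 3 passed as lower, with a median of -0.42, while Acap1 stood at 1.56. At day 22, 8 passed as lower in p95HER2 and none as higher, with a median of -1.52, or 3 with a muscle covariate and 2 without libraries of high skin markers. Between days in p95HER2 tumors none passed with limma (2 at an unadjusted p under 0.05), and the median was 0.21, beside -1.19 for Acap1. Their summed level in p95HER2 tumors ran from 35.98 to 152 CPM at day 10 and 33.5 to 142 CPM at day 22. The day 10 median changed sign with quantile normalization (0.05) and with a muscle covariate (0.21), and none of the 14 passed at day 10 with that covariate or with the digits term.

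Fibroblast markers fell with time, as Foxq1 did, and so did some epithelial markers. All 14 fibroblast markers fell in FL-HER2 tumors (median -2.23) and 12 of 14 fell in p95HER2 tumors (median -0.91). Their sum ran from 10370 to 29323 CPM at day 10 and 1592 to 4380 CPM at day 22 in FL-HER2, and from 5862 to 13730 and 2073 to 3840 CPM in p95HER2. At day 10, 10 of the 14 passed as lower in p95HER2, while Foxq1 stood at 0.50, or 3 of the 14 with the digits term. Among epithelial markers Krt14 stood at -3.25 with time in FL-HER2 and -2.20 in p95HER2, and Trp63 at -3.20 and -2.47. Others rose, such as Cldn4 in FL-HER2 (0.71) and Epcam in p95HER2 (0.25). The part of fibroblasts or of epithelial cells in the Foxq1 level was not tested.

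Of 20 hair follicle genes, a tissue in which Foxq1 acts, 2 passed the filter. Padi3, an enzyme that modifies hair proteins, fell with time by 2.60 in FL-HER2 (limma adjusted p = 3.44e-15) and by 2.47 in p95HER2 (limma adjusted p = 7.22e-15). Tchh, trichohyalin of the inner root sheath, fell by 0.82 (limma adjusted p = 1.24e-06) and 0.65 (limma adjusted p = 5.30e-05). Neither passed between constructs. The other 18 did not pass, and they were not all near 0. Krt28 was at 0 in 15 libraries, and Krt71 was at 0 in 19 but reached 5.27 CPM in a p95HER2 day 22 library, where Krt25 reached 2.95 CPM. The hair keratins Krt31, Krt34 and Krt81 were at 0 in 36 to 38 of 39 libraries. The summed level of the list was 35.2 CPM in p95HER2 day 22 replicate 10, beside at most 16.6 CPM in any other day 22 library, and Foxq1 was at 3.48 CPM there, inside the range of its group. The part of hair follicle tissue in the Foxq1 level was not tested.

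Libraries with high skin markers were compared with the others of their group, and values of some genes are given. In p95HER2 day 10 tumors Dynap was at 14.4 ± 2.54 CPM in the 5 with high skin markers and 12.7 ± 2.69 CPM in the other 5, and Prkg2 at 18.4 ± 2.56 and 16.1 ± 2.86 CPM. At day 22 the 3 libraries with high skin markers held Dynap at 6.26 to 7.19 CPM and the other 7 at 2.07 to 7.44 CPM. Foxq1 was at 3.48 to 4.27 CPM in those 3 and 2.05 to 3.73 CPM in the other 7. The Foxq1 means were 3.90 ± 0.392 and 2.84 ± 0.501 CPM. The ranges of libraries with and without high skin markers overlapped in each of these cases. Otof in FL-HER2 day 22 tumors was an exception. The 1 library with high skin markers was at 18.8 CPM, and the other 8 were at 2.24 to 11.6 CPM.

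Spread among the 10 p95HER2 libraries of a day did not enter the choice of genes and was examined over 15 pairs and 2 days, 30 relations. On log2 values 1 relation passed, between Dynap and Prkg2 at day 22 (Pearson r = 0.87, permutation p = 0.00139, adjusted p = 0.0417). Its Spearman rho was 0.82 (permutation p = 0.00620, adjusted p = 0.155), and r was 0.76 without the 2 libraries farthest from the median. In CPM none of the 30 passed, with 5 at an unadjusted permutation p under 0.05 and a lowest adjusted p of 0.0705. At day 10 the same pair had r = 0.74 (permutation p = 0.0191, adjusted p = 0.123) and rho = 0.76.

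Dynap and Prkg2 thus had the highest r at both days, and only the day 22 value passed, on log2 values but not in CPM. The r between Dynap and Foxq1 at day 22 was 0.77 (permutation adjusted p = 0.0752) and fell to 0.37 without the 2 farthest libraries. Acap1 and Otof were opposed at day 22, with r = -0.78 (permutation adjusted p = 0.0752). Msln and Otof were opposed at day 10, with r = -0.72 (permutation adjusted p = 0.123), which shrank to -0.15 without 2 libraries. The remaining pairs at both days lay between -0.39 and 0.57.

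**Figure D3:**
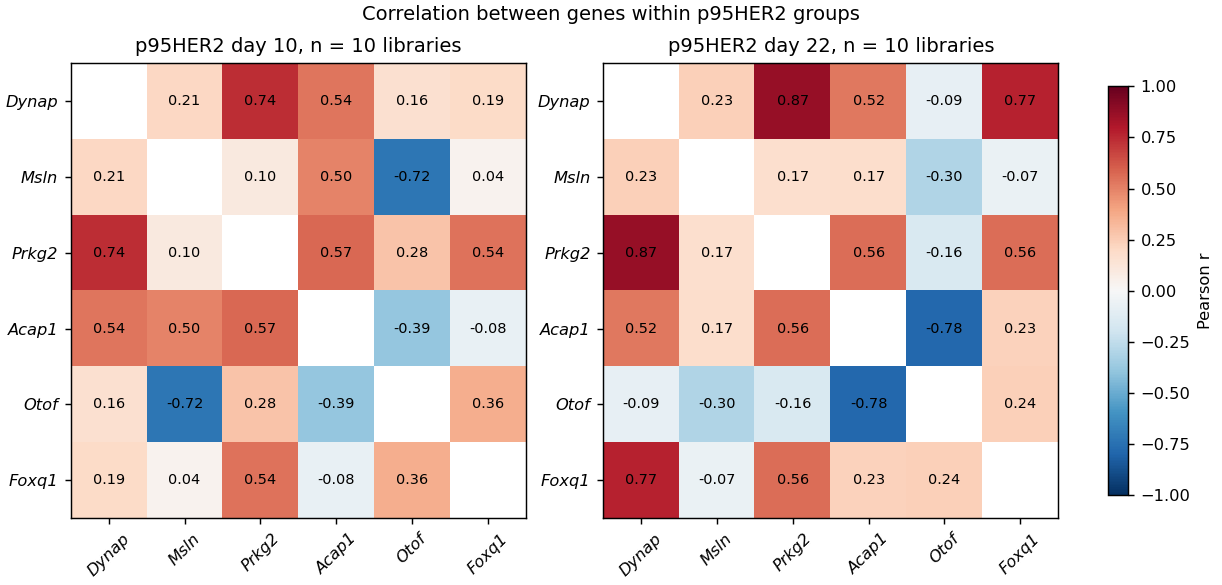
Pearson r of the log2 values between the 6 genes among the 10 p95HER2 libraries of each day, with color from -1 (blue) to 1 (red). Dynap and Prkg2 have the highest r at both days (0.74 and 0.87), and Acap1 and Otof have the lowest at day 22 (-0.78).

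Among p95HER2 libraries the genes were also set against scores of muscle, lymphocyte, interferon and mesothelial genes and against Erbb2, 60 relations in all, of which 4 passed by Pearson r and none by Spearman rho. By Spearman rho the lowest adjusted p was 0.0690. Acap1 rose with the lymphocyte score at day 22 (r = 0.89, permutation adjusted p = 0.0214, rho = 0.79), and Otof was lower where that score was higher (r = -0.87, permutation adjusted p = 0.0214, rho = -0.82). Without the 2 farthest libraries these were 0.73 and -0.73. At day 10 the values were 0.73 (permutation adjusted p = 0.164) and -0.76 (permutation adjusted p = 0.152).

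Interferon-induced genes such as Isg15 and Rsad2 gave the third relation, with Acap1 at day 22 (r = 0.88, permutation adjusted p = 0.0280, rho = 0.68, r = 0.70 without 2 libraries). At day 22 replicate 6 was highest and replicate 1 lowest in both the interferon and the lymphocyte score, so the relations with these scores are not independent. The fourth relation was between Otof and the mesothelial score at day 10 (r = -0.84, permutation adjusted p = 0.0214, rho = -0.89, r = -0.61 without 2 libraries). Replicates 1, 5, 6 and 10 were highest in both the mesothelial and the muscle score at day 10. With the muscle score Otof had r = -0.58 there (permutation adjusted p = 0.319), and the part of each score was not tested. Msln and the mesothelial score had r = 0.69 at day 10 (permutation adjusted p = 0.184) and 0.49 at day 22 (permutation adjusted p = 0.488). With Erbb2 the 6 genes had r from -0.47 to 0.57 over both days, and none passed. Over all 39 libraries the skin score fell into separate clusters, so no pooled r is given for it. Among p95HER2 libraries its largest gap took 0.751 of the range at day 22 but only 0.277 at day 10. The muscle score, which was pooled, had a larger gap at day 10 (0.449).

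**Figure D4:**
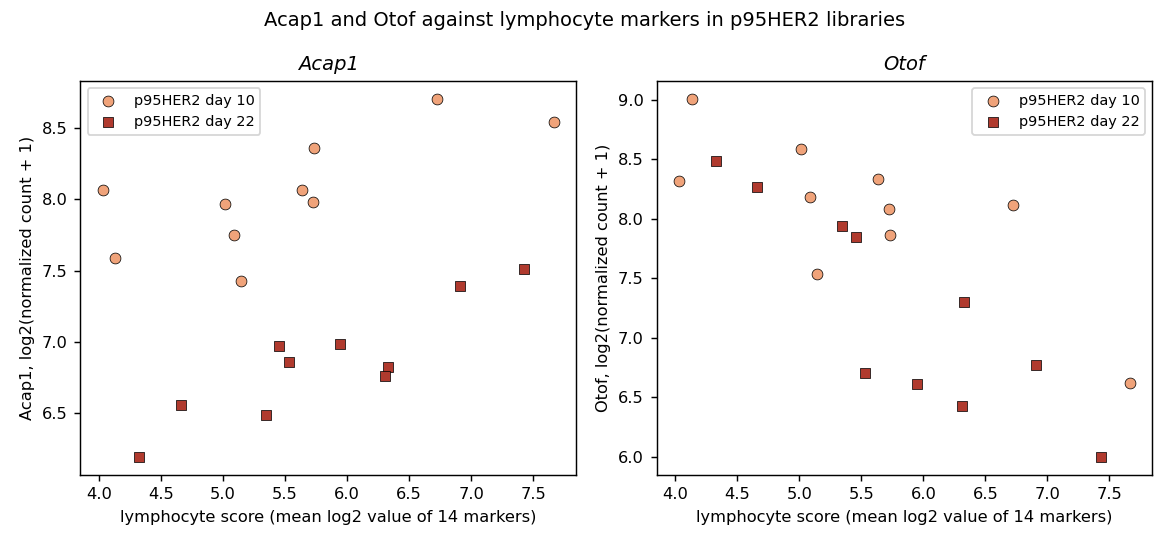
Acap1 (left) and Otof (right) against the lymphocyte score (mean log2 value of 14 markers) in the 20 p95HER2 libraries, 10 per day, all as log2 values. At day 22 Acap1 rises with the score (r = 0.89) and Otof is lower where it is higher (r = -0.87).

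Relatives and partners of each gene were then tested between constructs, with lists chosen for the known role of each gene. Over all genes tested 15.2% passed as higher and 26.1% as lower in p95HER2 at day 10 (41.3% in all), and 2.98% and 1.54% at day 22 (4.52% in all). Of 20 tested subunits of dynactin and cytoplasmic dynein, the complexes Dynap is named for, 1 was higher and 4 were lower in p95HER2 at day 10 (median -0.04). With median-of-ratios factors the counts were 4 and 2, and none of the 20 passed with a muscle covariate or with the digits term, so no direction is given for the list. The 3 smallest adjusted p-values were those of the dynein chain Dynlrb1 (-0.25 ± 0.07, limma adjusted p = 0.00390), the capping subunit Capzb (-0.26 ± 0.08, limma adjusted p = 0.00589) and Dctn4 (0.16 ± 0.05, limma adjusted p = 0.0204), all lost in both of those fits. At day 22 none passed with limma (2 at an unadjusted p under 0.05). None of these differences exceeded 0.27 in size, beside 6.46 for Dynap.

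Of 20 tested genes of cGMP signaling, 9 were lower and 2 higher in p95HER2 at day 10, with a median of -0.20 that turned to 0.12 with quantile normalization, and with the digits term 2 were lower and 2 higher. Prkg1, the other cGMP-dependent kinase, was opposite to Prkg2: 2.27 ± 1.55 CPM in p95HER2 and 6.60 ± 3.24 CPM in FL-HER2 (-1.67 ± 0.32, limma adjusted p = 8.44e-05). Muscle genes were also lower in p95HER2 at day 10, 22 of 22 tested, with sums of 494 to 38605 CPM in FL-HER2 and 36.1 to 10543 CPM in p95HER2. With the muscle score as a covariate Prkg1 stood at -0.96 (limma adjusted p = 0.0279), and with the digits term at -1.09 (limma adjusted p = 0.212).

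Npr2, a natriuretic peptide receptor that makes cGMP, was lower (-1.12 ± 0.15, limma adjusted p = 4.71e-07), as was the related receptor Npr1 (-0.80 ± 0.15, limma adjusted p = 5.47e-05), which missed the threshold with the digits term (limma adjusted p = 0.445). Abcc4, an exporter of cyclic nucleotides, was higher (0.56 ± 0.09, limma adjusted p = 5.63e-06). At day 22 none of the 20 passed with limma (1 at an unadjusted p under 0.05), Prkg1 standing at -0.47 ± 0.33 while Prkg2 stood at 2.20.

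Of 28 ARF proteins and ARF GAPs, 6 were higher and 5 lower in p95HER2 at day 10 (median -0.00283), or 8 and 3 with median-of-ratios factors and 2 and 1 with the digits term. The nearest relatives of Acap1 did not pass: Acap2 stood at 0.15 ± 0.06 (limma adjusted p = 0.0647) and Acap3 at -0.08 ± 0.06 (limma adjusted p = 0.302). Asap2 (0.49 ± 0.06, limma adjusted p = 9.55e-09) and Agfg1 (0.22 ± 0.04, limma adjusted p = 6.06e-06) were higher and Arap1 lower (-0.26 ± 0.05, limma adjusted p = 8.36e-05), the last 2 lost with the digits term (limma adjusted p = 0.147 and 0.331). At day 22 only Agap2 of the 28 passed, as lower (-0.98 ± 0.21, limma adjusted p = 0.00410).

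Of 16 tested ferlins and other C2-domain proteins of vesicle release, 7 were lower and 2 higher at day 10 (median -0.33). With quantile normalization the counts were 2 and 6 and the median 0.04, and with the digits term 1 and 2, so no direction is given for the list. The 2 higher genes were Unc13a and Myof. The vesicle-priming gene Unc13a was at 3.34 ± 0.853 CPM in p95HER2 and 0.977 ± 0.338 CPM in FL-HER2 (1.72 ± 0.19, limma adjusted p = 6.34e-09), and its relative Unc13b was lower (-1.20 ± 0.19, limma adjusted p = 6.33e-06). Myof, the ferlin myoferlin of membrane repair, stood higher at day 10 (0.33 ± 0.07, limma adjusted p = 0.000289) and at day 22 (0.44 ± 0.07, limma adjusted p = 0.000101). Dysf, dysferlin, was lower at day 10 (-0.28 ± 0.11, limma adjusted p = 0.0348) but missed the threshold in all 5 other fits made for it. At day 22 Unc13a did not pass, Sytl2 was lower (-0.92 ± 0.21, limma adjusted p = 0.00661) and Syt12 higher (0.55 ± 0.16, limma adjusted p = 0.0362), the last lost with a muscle covariate (limma adjusted p = 0.0635) and without libraries of high skin markers (limma adjusted p = 0.0880).

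Of 25 tested forkhead factors other than Foxq1, 6 were higher and 4 lower in p95HER2 at day 10 (median 0.10), or 3 and 1 with the digits term. Foxi1 had the largest difference, at 6.17 ± 2.27 CPM in p95HER2 and 24.998 ± 7.35 CPM in FL-HER2 (-2.13 ± 0.22, limma adjusted p = 1.02e-09). Foxj3 was higher (0.27 ± 0.04, limma adjusted p = 6.68e-06) and Foxo6 lower (-0.75 ± 0.14, limma adjusted p = 5.49e-05), both lost with the digits term (limma adjusted p = 0.266 and 0.238). At day 22 only Foxp3 passed, a factor of regulatory T cells, as lower (-1.68 ± 0.30, limma adjusted p = 0.000319).

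Of 20 interferon-induced genes, a response that also induces Otof in some cells, 4 were lower and none higher in p95HER2 at day 10, or none with a muscle covariate and 17 with the digits term. The 3 smallest adjusted p-values were those of Oas1a (-0.69 ± 0.23, limma adjusted p = 0.0152), Rsad2 (-0.80 ± 0.30, limma adjusted p = 0.0316) and Isg15 (-0.72 ± 0.27, limma adjusted p = 0.0333). None passed at day 22 with limma (10 at an unadjusted p under 0.05). With time in FL-HER2, where Otof stood at 1.81, 1 of the 20 fell and none rose, or 18 fell with the digits term. Among p95HER2 libraries Otof had r = -0.60 with the interferon score at day 10 (permutation adjusted p = 0.310). At day 22 it had r = -0.70 (permutation adjusted p = 0.174).

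**Figure D5:**
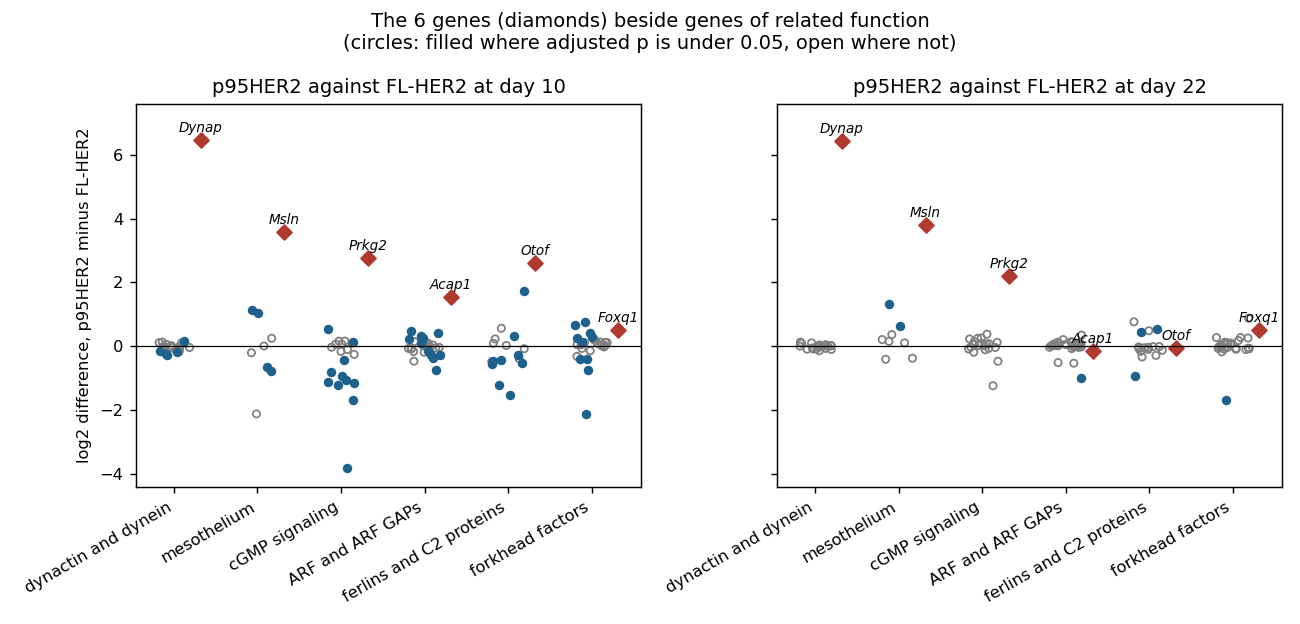
Log2 difference between p95HER2 and FL-HER2 at day 10 (left) and day 22 (right) for each of the 6 genes (diamonds, no test) and the tested genes of the related list (circles, filled where the adjusted p is under 0.05). Dynap, Msln and Prkg2 lie above every circle of their lists at both days, and Acap1 and Otof lie among theirs at day 22.

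Positions in the GENCODE M21 annotation of mm10 place the genes on 5 chromosomes. Dynap lies at 18:70240429-70244582 (minus strand), Msln at 17:25748613-25754378 (minus), Acap1 at 11:69881567-69895539 (minus) and Foxq1 at 13:31556134-31560976 (plus). Prkg2, at 5:98929773-99037351, and Otof, at 5:30367062-30461932, are both on the minus strand of chromosome 5, far apart. Of 12 nearest tested neighbours, 4 were higher and 1 lower in p95HER2 at day 10 and 1 was higher at day 22.

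Kctd11, an adaptor of a ubiquitin ligase whose start lies 0.161 kb from the end of Acap1 on the same strand, was higher in p95HER2 at day 10 (0.55 ± 0.09, limma adjusted p = 6.04e-06) and at day 22 (0.54 ± 0.09, limma adjusted p = 0.000111). It fell with time by 1.02 in both constructs, so it moved unlike Acap1 in FL-HER2. Foxf2, the forkhead gene 64.8 kb from Foxq1, fell with time by 1.96 ± 0.31 in FL-HER2 (limma adjusted p = 1.54e-06) and by 1.85 ± 0.30 in p95HER2 (limma adjusted p = 4.01e-06), the direction of Foxq1. Mean Foxf2 was low, going from 1.03 to 0.258 CPM in FL-HER2 and from 1.75 to 0.528 CPM in p95HER2. Its day 10 difference between constructs (0.77 ± 0.30, limma adjusted p = 0.0346) was lost without libraries of high skin markers (0.59, limma adjusted p = 0.243). Neither neighbour of Msln passed between constructs.

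The genes most alike were ranked by Pearson r of log2 values over the 39 libraries, a description in which the 4 groups are shared by all genes. Dynap was closest to the chromatin protein gene Hmga2 (0.97), the cytokine gene Il24 (0.96) and Wnt7a (0.96). Prkg2 was closest to Lama3, a laminin chain of basement membranes (0.95), the laminin-binding integrin gene Itga3 (0.94) and Acsbg1 (0.93), and Msln to Lama3 (0.87), Fosl1 (0.86) and Odaph (0.86). Acap1 was closest to Il18rap, a cytokine receptor chain (0.87), Tnfrsf9 (0.81) and Jak3 (0.81). Otof was closest to the homeobox genes Dlx1 (0.89) and Dlx2 (0.84) and to Lamb1 (0.82), and Foxq1 to Bmp2 (0.97), Pcolce (0.96) and Nox4 (0.96).

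After removing group means the closest genes were mostly others. They were Il1rl1 (0.67), Rdh10 (0.66) and Tnfrsf23 (0.66) for Dynap, Camk2g (0.70), Casz1 (0.67) and Pnpla2 (0.66) for Msln, and Osbpl3 (0.66), Krt14 (0.62) and Pkp1 (0.61) for Prkg2. For Acap1 they were Npc2 (0.86), Psma4 (0.84) and Cst7 (0.84). Otof kept Dlx1 (0.74) behind Scube1 (0.76) and Inpp5f (0.75), and Foxq1 kept Pcolce (0.77) between Kctd11 (0.80) and Lurap1l (0.73).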

How the data were processed

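Directional poly(A) libraries were made from 39 PB2 tumor samples, per the labels' protocols. STAR 2.4.2a, the mm10 build and DESeq2 are named in the submitters' processing notes. No source used here gives the counter, annotation, strand setting or filters. The authors' deposited table holds log2 values of 20520 genes. Its name says CPM, but undoing the log2 gave whole multiples of 1 step per library for 100% of values (tolerance 0.001 reads), so the values are log2(normalized count + 1). Reads were recovered by dividing by that step. CPM and RPKM (over merged exons) were computed from them.

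A gene was tested where 9 or more libraries had 1 CPM or more (13650 genes, all 6 described here among them). Models with 1 coefficient per group were fitted to the deposited log2 values with limma 3.58.1 in R 4.3.3 (trend, two-sided), with Benjamini-Hochberg adjustment over all tested genes and calls at an adjusted p under 0.05. The fit was tried on simulated counts with a fixed spread and no tissue differences between groups. There 64% of 1.5-fold and 100% of 2-fold changes were called, with 0.0743% of unchanged genes. These rates need not hold for libraries that differ in tissue. Correlations used 100000 permutations, with Benjamini-Hochberg adjustment over the relations of a family. Limits for counts of 0 cover counting error only. Groups came from the labels, and replicate numbers follow the order of the records. For FL-HER2 day 10 replicate 8 the title and description give different tumor numbers, and its column was matched by the description. No 2 libraries had identical values.

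The 6 genes and the lists were chosen with earlier results of these data known. A limma test of the 6 genes with time in FL-HER2 was planned. That contrast is a sum of those that served to choose them, so its p-values and calls are not given. Beside the 6 genes, the text names the paralogs Mslnl, Prkg1, Acap2, Acap3, Dysf and Myof, from each pathway list up to 3 called genes of smallest adjusted p per contrast between constructs, nearest tested neighbours, and the 3 most alike genes by each measure. Markers given beside a result were named after their values were seen. Alternatives were other pseudocounts, filters, scalings and tests, muscle, skin and digit settings, and leaving out each library. The skin limit of 5 was added after seeing the data.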

Additional observations from a re-analysis of the deposited data

Results flagged for a closer look

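Among the 24 groups formed by the 6 genes and 4 conditions, 4 held a library whose level lay far from the others by Dixon's criterion. Chance gives about 1 group in 20 for normally distributed values. CPM near 0 are not so distributed, so no excess is read from the count. Dynap in FL-HER2 day 22 replicate 6 was at 0.276 CPM, with the next library at 0.0878 CPM and 6 of the 9 at 0. Foxq1 in the same library was at 5.70 CPM, with the next at 3.12 CPM. Msln in p95HER2 day 22 replicate 7 was at 4.15 CPM, with the next at 2.402 CPM. Otof in FL-HER2 day 10 replicate 1 was at 4.58 CPM, with the next at 2.51 CPM. The cause was not tested in any of these.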

How the results depend on the processing

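No paired analysis was possible because replicate numbers follow the order of the records and the labels pair no libraries. Genes called between constructs at day 10 numbered 5636, 3234 with a muscle covariate and 1375 with the digits term, and 5003 to 5965 leaving out 1 library. At day 22 they numbered 617, 246 without libraries at a skin score of 6 or more, 228 at 5 or more, and 339 to 892 leaving out 1 library, with a ratio to 617 beyond 1.5 either way for FL-HER2 replicates 1, 3 and 8 or p95HER2 replicates 4, 9 and 10. With time in FL-HER2 they numbered 7011, 2953 with the digits term and 6586 to 7219 leaving out 1 library, and with time in p95HER2 4799 and 4443 to 4898. Calls among the 6 genes with time in FL-HER2 are not given, because that contrast is not independent of their choice. The count of related pairs was 1 on log2 values and 0 in CPM. The cause was not tested.

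The Otof difference at day 22 (-0.04) was 0.0337 with quantile normalization, 0.00427 with voom and 0.0128 without libraries of high skin markers at either limit. It ran from -0.200 to 0.181 leaving out 1 library, and turned positive without FL-HER2 replicate 3, 5, 6 or 7 or p95HER2 replicate 3, 6, 7, 8 or 9. The size of the Dynap difference depended on the scale: at day 22 it was 8.80 with a pseudocount of 0.1, 4.56 with 5, 7.34 with voom and 2.51 on log2(CPM + 1). On the last scale the day 10 differences were 3.64 for Dynap and 2.05 for Msln, and Msln at day 22 was 1.32. Leaving out 1 library kept the direction of every other difference of the 6 genes. The shares of higher calls between constructs at day 10 were 36.7%, 49.1% with median-of-ratios factors, 63.4% with quantile normalization and 51.5% on log2(CPM + 1).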
